A study of Mus musculus with 6 samples.

Results

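Microexons are exons so short that they add only a few amino acids to a protein. They are best known from neurons, where the splicing activator Srrm4 raises their inclusion, and many of them lie in genes for the cytoskeleton, signalling and membrane traffic. Ptbp1, the polypyrimidine tract-binding protein, binds pyrimidine-rich RNA near exons and mostly keeps them out of the messenger RNA, and in neurons it gives way to its paralogue Ptbp2. The microexons described here are the cassette exon nodes of 3 to 27 nt in the deposited splicing tables that had at least 20 reads in each of the 6 libraries. A node is a stretch of a gene between neighbouring splice sites, and its Psi, or percent spliced in, is the share of reads that include it, given as a fraction from 0 to 1. This rule took 773 of 78852 cassette exon nodes with that read number. They lay in 643 genes and at 767 distinct positions, since 12 nodes share their interval with a node of an overlapping gene.

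The cells were a mouse aortic endothelial line immortalised with an SV40 gene under a doxycycline switch. Per the labels it was expanded with doxycycline, at 2 ug/mL, and then moved to medium without it, and this holds for every library. WT is the parental line, KO a single-cell clone of it with Ptbp1 deleted by CRISPR, and Rescue that clone with a human PTBP1 cDNA added. Each was sequenced once untreated and once after TNF at 30 ng/mL, so there were 6 groups of 1 library and no replicates. A difference between KO and WT cannot be told apart from a difference between a clone and its parental line. The labels do not say whether the Rescue cells are a clone or a pool.

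File names and labels disagreed for 4 of the 6 libraries. Groups were taken from the file names, in which basal was taken to mean WT, and a library is called "named" by its file name. The library named WT is labelled WT, that named WT_TNF is labelled KO, and that named KO is labelled Rescue. That named KO_TNF is labelled WT_TNF, that named Rescue is labelled KO_TNF, and that named Rescue_TNF is labelled Rescue_TNF. Ptbp1 messenger RNA was at 236.22, 270.18, 265.75, 275.13, 126.63 and 128.90 TPM in the libraries named WT, WT_TNF, KO, KO_TNF, Rescue and Rescue_TNF, so it was not lower in the libraries named KO. Ptbp2, which Ptbp1 represses, was at 22.79, 20.67, 127.88, 106.05, 42.21 and 45.29 TPM in that order. Both libraries named KO lay above the others. Of those labelled KO and KO_TNF, the first had the lowest value of the 6 and the second 42.21 TPM. Those labelled WT and WT_TNF had 22.79 and 106.05. Where 6 values are listed for a gene or microexon, they stand in this order.

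RSEM counts per library came to 19598779 to 21626824, and the median read number behind the Psi of a microexon was 108 to 122. Of 10 endothelial markers 8 were under 1 TPM in all 6 libraries, among them Pecam1, Cdh5, Kdr and Vwf, and 1, Cldn5, was listed at 0 in all of them. Eng was at 147.30 to 199.88 TPM. Of 10 smooth muscle and fibroblast markers 6 were above 1 TPM in every library. The summed level of all 10 ran from 3697.56 TPM in the library named Rescue_TNF to 8524.95 in that named WT. The defining endothelial markers of the labelled cell type were thus absent or near 0. Of 7 neuronal markers matched, Rbfox3 and Elavl4 were listed at 0 in all 6 libraries and the summed level was 15.34 to 58.50 TPM, with the highest value in the library named WT. Most of that sum was Tubb3, at 55.45 TPM in that library. Snap25 was above 1 TPM only in the libraries named KO and KO_TNF, at 1.15 and 1.58. Syt1 went the other way, at 1.78 TPM in both of these and 1.96 to 6.38 in the others. How much these cell type differences add to any microexon result was not tested.

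The 8 microexons with the largest Psi difference between the libraries named KO and WT are shown with 15 bases of the neighbouring exons, read from GENCODE vM21 transcripts (GRCm38). Capitals mark the microexon, lower case the exons it is spliced between, and every one of the 8 is a whole coding exon. They are shown because they carry the main comparison, and 7 of them rose in the libraries named KO while that of Picalm fell.
Dnm1: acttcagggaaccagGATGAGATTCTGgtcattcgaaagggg
Ctnnd1: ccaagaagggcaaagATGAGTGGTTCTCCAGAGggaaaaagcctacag
Suco: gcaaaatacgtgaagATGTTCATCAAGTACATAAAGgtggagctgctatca
Nav1: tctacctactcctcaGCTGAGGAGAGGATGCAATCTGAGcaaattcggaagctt
Pdlim7: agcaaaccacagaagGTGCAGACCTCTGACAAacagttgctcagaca
Idh3g: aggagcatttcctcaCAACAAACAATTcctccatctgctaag
Picalm: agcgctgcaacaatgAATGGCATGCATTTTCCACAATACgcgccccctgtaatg
Rapgef2: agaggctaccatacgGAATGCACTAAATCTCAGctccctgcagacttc

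On the minus strand lie Dnm1 (chr2:32323179-32323190, 12 nt), Ctnnd1 (chr2:84612532-84612549, 18 nt) and Suco (chr1:161845560-161845580, 21 nt). Nav1 (chr1:135463915-135463938, 24 nt), Pdlim7 (chr13:55507864-55507880, 17 nt), Idh3g (chrX:73782298-73782309, 12 nt) and Rapgef2 (chr3:79169739-79169756, 18 nt) are on that strand as well, and Picalm (chr7:90194273-90194296, 24 nt) is on the plus strand. That of Pdlim7 is the only one of the 8 whose length is not a multiple of 3, so it shifts the reading frame. Sequence of the flanking introns was not analysed here.

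Microexons were more often skipped than longer cassette exon nodes in these cells. Of the 773, 393 (50.8%) had a mean Psi above 0.98 over the 6 libraries, against 90.9% of the other cassette exon nodes. A further 169 (21.9%, against 1.92%) were under 0.02, and 211 (27.3%, against 7.22%) were between these limits. Psi was exactly 1 in all 6 libraries for 302 and exactly 0 in all 6 for 121. An exact value here says only that no read of the other kind was counted at the node's depth.

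Most microexons were annotated exons. Of the 773, 742 match a whole exon of GENCODE vM21, 624 a whole coding exon, and for 434 the annotation holds a transcript that skips them. Their length was a multiple of 3 for 458 (59.25%), against 39.53% of the other cassette exon nodes. The most frequent lengths were 27 nt (112 nodes), 24 nt (82), 18 nt (58) and 21 nt (58), and only 13 nodes were 3 nt long. In 623 of the 624 coding ones no in-frame stop codon was found, but they were read in the frame of an annotated coding sequence. Such a sequence holds no stop before its end, so this count was largely fixed by how they were chosen. The last base was G in 588 (79.4%) of the 741 with a transcript sequence.

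In the libraries named KO more microexons had higher than lower inclusion compared with those named WT, which by file name sets the Ptbp1 deletion against the parental line. Calls are taken from a limma fit of the log2 odds of inclusion over the 5845 cassette exon nodes of mean Psi 0.02 to 0.98, 211 of them microexons, and need an adjusted p under 0.05 and a Psi difference of at least 0.1. That mean was over all 6 libraries, so a node near 0 in the others could enter through the libraries named KO alone. Such a node could only be called higher, and a node near 1 in the others that entered in this way only lower. How many nodes entered so was not counted. In this fit 30 microexons rose and 2 fell, the largest changes being in Dnm1, Ctnnd1 and Suco. Over all nodes of that fit 2.81% were called higher and 1.97% lower. As a share of all nodes with enough reads, called higher were 3.88% of the 773 microexons against 0.208% of the 78852 nodes, and called lower 0.259% against 0.146%. The same model over all 78852 nodes had been chosen first as the test. It called 0% of nodes and 0 microexons (smallest adjusted p = 0.0945), with 12061 nodes and 146 microexons at an unadjusted p under 0.05. It also recovered almost none of the changes put into simulated data. Those data had an assumed spread between libraries, not estimated from these ones, and no TNF effect. They therefore cannot show why the fit of all nodes gave 0 calls here. The choice between these fits was made after seeing the data.

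Both fits rest on 2 residual degrees of freedom and measure how unequal an effect was across TNF treatment or genotype, not a spread between replicate cultures. The same nodes fitted without weights by read number, or with a quasi-binomial model per node, gave 0 calls. Over all 773 microexons the median Psi difference was 0, as it was over all nodes, and over those with an intermediate Psi it was 0.018 against -0.0057 for all such nodes. Without any test, 48 of the 773 microexons were higher by at least 0.1 (412 of 78852 nodes, or 0.522%) and 21 lower (476 nodes, or 0.604%). Both libraries named KO were above the other 4 for 64 microexons, or 8.28%, against a share of 0.955% of all nodes, and below the other 4 for 25 (3.23%, against 1.6%).

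The 30 microexons called higher had a median Psi of 0.251 and 0.204 in the libraries named WT and WT_TNF, 0.612 and 0.586 in those named KO and KO_TNF, and 0.273 and 0.320 in those named Rescue and Rescue_TNF. Their Psi differences ran from 0.174 to 0.586. For 28 of the 30 both libraries named KO lay above the other 4, the exceptions being Mrpl33 and Ssc5d. All 32 called nodes are whole coding exons, 30 have a length that is a multiple of 3, and for 29 a skipping transcript is annotated. Of the 211 microexons in the fit these traits were held by 176, 157 and 182, so they were common among all that could be called. The 32 called nodes stand at 31 positions, because Ctnnd1 and the overlapping readthrough gene Gm28635 share 1 microexon.

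**Figure D1:**
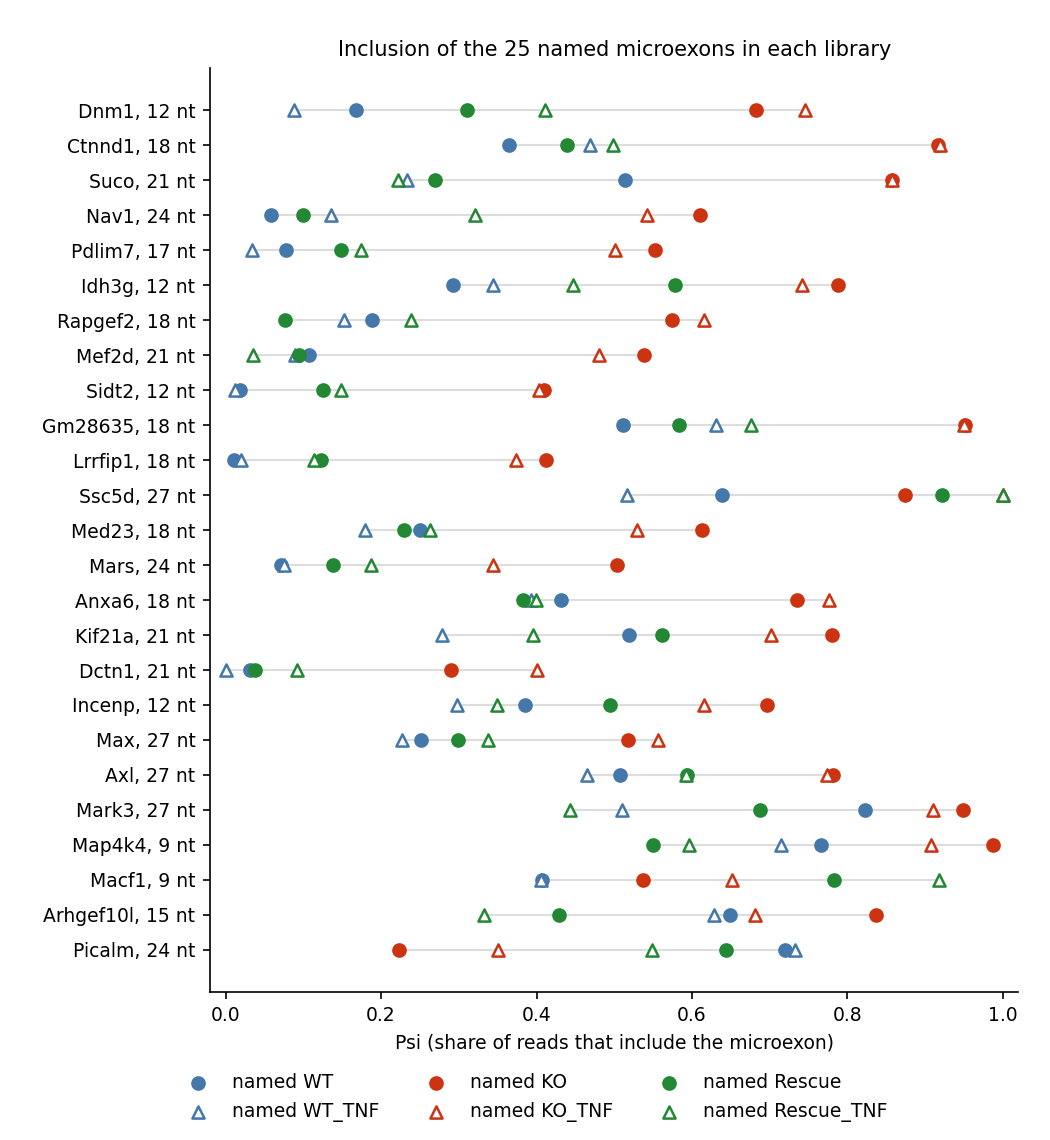
Psi (x axis, fraction) of the 25 named microexons (rows, ordered by the difference between the libraries named KO and WT) in each library. Circles are libraries named without TNF and triangles those named with it, and there are no error bars, since each group is 1 library. The red points of the libraries named KO lie to the right of the others in most rows, and to the left for Picalm.

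The called microexons are described by what their genes are known for, an order made after the calls were seen and not a test of any function. Some were in genes of adhesion and the actin cytoskeleton. Ctnnd1 encodes p120 catenin, which binds and stabilises cadherins at cell junctions. Its 18 nt microexon had a Psi of 0.364, 0.469, 0.916, 0.919, 0.439 and 0.499 on 246 to 420 reads. The libraries named KO were thus close to full inclusion, the other 4 at or under 0.499, and the groups did not overlap. The difference was 0.501, or 3.96 ± 0.26 (SE) in log2 odds (adjusted p = 3.6e-08). Reads at this position are divided between Ctnnd1 and Gm28635, whose own Psi rose from 0.511 and 0.631 to 0.951 and 0.95, so neither value is certain. Junction reads alone could not be used for Ctnnd1, and for Gm28635 they gave a Psi of 1.00 in every library.

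Pdlim7, also called Enigma, joins a PDZ and LIM domains and binds actin-associated proteins. Its 17 nt microexon had a Psi of 0.0773, 0.0337, 0.552, 0.501, 0.149 and 0.174 on 148 to 1210 reads. It was therefore almost absent from the libraries named WT and at about equal parts in those named KO, a difference of 0.471, or 4.14 ± 0.43 (SE) in log2 odds (adjusted p = 1.04e-05). Here the level of the gene moved as well, from 92.57 and 88.95 TPM to 576.68 and 513.10, with 194.31 and 177.83 in the libraries named Rescue. In its relative Pdlim5, 2 neighbouring microexons of 18 and 15 nt had a Psi of 0 in both libraries named WT. They were at 0.215 and 0.259, and at 0.159 and 0.265, in those named KO, and the other 3 Pdlim5 microexons were at 0 in all 6. In the libraries named Rescue both called ones were at 0.0351 and 0.0343. Their mean Psi thus passed 0.02 only through the libraries named KO, and they could not have been called lower. Pdlim5 and further genes that are named here with a value (Fnbp1, Immt, Uggt1, Mrpl33, Acaca, Fip1l1, Rps24 and Commd4) were beyond the 25 largest and were added after their values were seen.

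Among genes of microtubules and motors, Nav1, a protein of growing microtubule ends, had a Psi of 0.0588, 0.136, 0.610, 0.542, 0.0996 and 0.321 for its 24 nt microexon. Only 25 to 64 reads stood behind these values, and the difference was 0.479 (adjusted p = 0.0126). Dctn1 encodes the large subunit of dynactin, the cofactor of dynein, and its 21 nt microexon went from 0.0319 and 0 to 0.290 and 0.401 (adjusted p = 0.014). The other Dctn1 microexons, of 15, 18 and 21 nt, were at or under 0.0294 in every library. The kinesin Kif21a rose from 0.519 and 0.279 to 0.780 and 0.701 at 21 nt. Mark3, a kinase of microtubule-associated proteins, rose from 0.822 and 0.510 to 0.948 and 0.910 at 27 nt, and on junction reads it was at 0.759 and 0.660 against 0.927 and 0.908.

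The largest rise was in Dnm1 and the largest fall in Picalm. Dnm1 is dynamin 1, the GTPase that pinches off endocytic vesicles. Its 12 nt microexon was at 0.168, 0.0875, 0.682, 0.746, 0.311 and 0.411 on 139 to 264 reads. The libraries named Rescue lay between the other pairs without overlap, and KO minus WT was 0.586, or 3.87 ± 0.36 (SE) in log2 odds (adjusted p = 2.1e-06). Picalm, a clathrin assembly protein, went the other way at 24 nt, with 0.719, 0.733, 0.223, 0.351, 0.644 and 0.548 on 192 to 533 reads. Its Psi fell by 0.439 (adjusted p = 2.28e-05), and both libraries named KO were below the other 4. Sidt2, a lysosomal membrane protein, rose from 0.0192 and 0.0119 to 0.409 and 0.403 at 12 nt, and Fnbp1, whose F-BAR domain bends membranes, from 0.0116 and 0.0101 to 0.246 and 0.284 at 15 nt.

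Axl is a receptor tyrosine kinase for Gas6, and its 27 nt microexon was among the deepest, with 572 to 1290 reads and a Psi of 0.507, 0.465, 0.781, 0.774, 0.593 and 0.592. The values within each pair differed by at most 0.042, and KO minus WT was 0.292 (adjusted p = 1.03e-07). Ptk2, focal adhesion kinase, had 0.111, 0.101, 0.342, 0.388, 0.162 and 0.176 at its 9 nt microexon, a rise of 0.259 (adjusted p = 0.000116). Rapgef2, an exchange factor for the GTPase Rap1, rose at 18 nt from 0.188 and 0.152 to 0.574 and 0.615 on 21 to 57 reads. Map4k4, a kinase upstream of JNK, rose at 9 nt from 0.766 and 0.715 to 0.987 and 0.907. Abi1, an adaptor of the WAVE complex that drives actin branching, rose at 15 nt from 0.151 and 0.0753 to 0.391 and 0.183.

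In transcription, the 21 nt microexon of the muscle and neuron factor Mef2d had a Psi of 0.107, 0.0893, 0.538, 0.481, 0.0943 and 0.0357 on 56 to 123 reads. Both libraries named Rescue were below the library named WT, and the rise was 0.411 (adjusted p = 0.00126). Max, the partner of Myc, rose at 27 nt from 0.252 and 0.227 to 0.518 and 0.556, and the Mediator subunit Med23 at 18 nt from 0.250 and 0.180 to 0.613 and 0.529 on 30 to 50 reads. Lrrfip1, a leucine-rich repeat interacting protein, rose at 18 nt from 0.0104 and 0.0195 to 0.412 and 0.373, and Incenp of the chromosomal passenger complex at 12 nt from 0.385 and 0.298 to 0.696 and 0.616.

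Enzymes and other housekeeping proteins were present too. Idh3g, a regulatory subunit of the mitochondrial isocitrate dehydrogenase, had 0.293, 0.344, 0.788, 0.742, 0.578 and 0.447 at 12 nt, a rise of 0.447 (adjusted p = 0.000111). Anxa6, a calcium-dependent membrane-binding annexin, had 0.432, 0.393, 0.735, 0.776, 0.383 and 0.399 at 18 nt on 484 to 1030 reads, a rise of 0.343 (adjusted p = 4.23e-08). For Anxa6 the libraries named Rescue were at the level of those named WT, while for Idh3g they lay between. Mars, the methionyl-tRNA synthetase, rose at 24 nt from 0.0714 and 0.0753 to 0.504 and 0.344. Immt of the mitochondrial inner membrane rose at 15 nt from 0.266 and 0.314 to 0.454 and 0.539, and Uggt1, which checks glycoprotein folding, at 24 nt from 0.600 and 0.640 to 0.837 and 0.813. Acaca, the acetyl-CoA carboxylase of fatty acid synthesis, fell at 24 nt from 0.905 and 0.919 to 0.738 and 0.789 (adjusted p = 0.0475).

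Some called microexons rest on few reads or on 1 pair. Suco, a SUN domain protein, had 0.514, 0.234, 0.857, 0.857, 0.269 and 0.222 at 21 nt on only 22 to 33 reads (adjusted p = 0.0282), and the values of the libraries named WT differed by 0.280. Ssc5d, a secreted scavenger receptor protein, had 0.639, 0.517, 0.874, 1.00, 0.922 and 1.00 at 27 nt. Its libraries named Rescue were as high as those named KO. On junction reads alone its Psi was 0.811, 0.821, 0.924, 0.930, 0.889 and 1.00, a smaller difference that was not called. Mrpl33 of the mitochondrial ribosome, at 19 nt, had 0.761, 0.856, 0.990, 0.974, 0.867 and 0.989, where the library named Rescue_TNF overlaps those named KO. Junction reads gave 0.888, 0.897, 0.982, 0.975, 0.968 and 0.994 for Mrpl33, a difference under 0.1 that was not called. The same held for Acaca, at 0.917, 0.955, 0.815, 0.932, 0.966 and 0.915.

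Of the 32 calls, 8 held whichever of the 6 libraries was left out, namely those of Anxa6, Axl, Ctnnd1, Dnm1, Gm28635, Pdlim7, Picalm and Ptk2. Those of Acaca, Mark3, Med23, Ssc5d, Suco and both Pdlim5 microexons were lost with any library left out. The count was 10 without the library named WT, 11 without WT_TNF, 10 without KO, 14 without KO_TNF and 25 without either of those named Rescue. Psi was also taken from reads that cross splice junctions, which come from the same libraries. For many called microexons it nearly equalled the deposited Psi, as for Dnm1 in the library named WT (0.1681 against 0.168). Likeness of the 2 values is thus largely built in and is no independent support. Junction reads numbered 20 or more in all 6 libraries for 31 of the 32. There the difference had the same sign for 30, the exception being Gm28635, and lay within 0.1 of the deposited one for 28. Beside Gm28635 those farther off were Ssc5d and Immt, the last with a larger difference on junction reads (0.261 and 0.312 against 0.622 and 0.644).

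Some large differences were not called. A second Rapgef2 microexon, of 24 nt and 25 to 57 reads, had 0.540, 0.607, 1.00, 0.918, 0.525 and 1.00 (difference 0.386, adjusted p = 0.152), where the library named Rescue_TNF went with those named KO. That of Dtnb, of 5 nt and 21 to 37 reads, had 0.410, 0.0417, 0.527, 0.631, 0.447 and 0.306 (difference 0.353, adjusted p = 0.282), and here the libraries named WT differed by more than the groups. Both were picked after their values were seen.

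**Figure D2:**
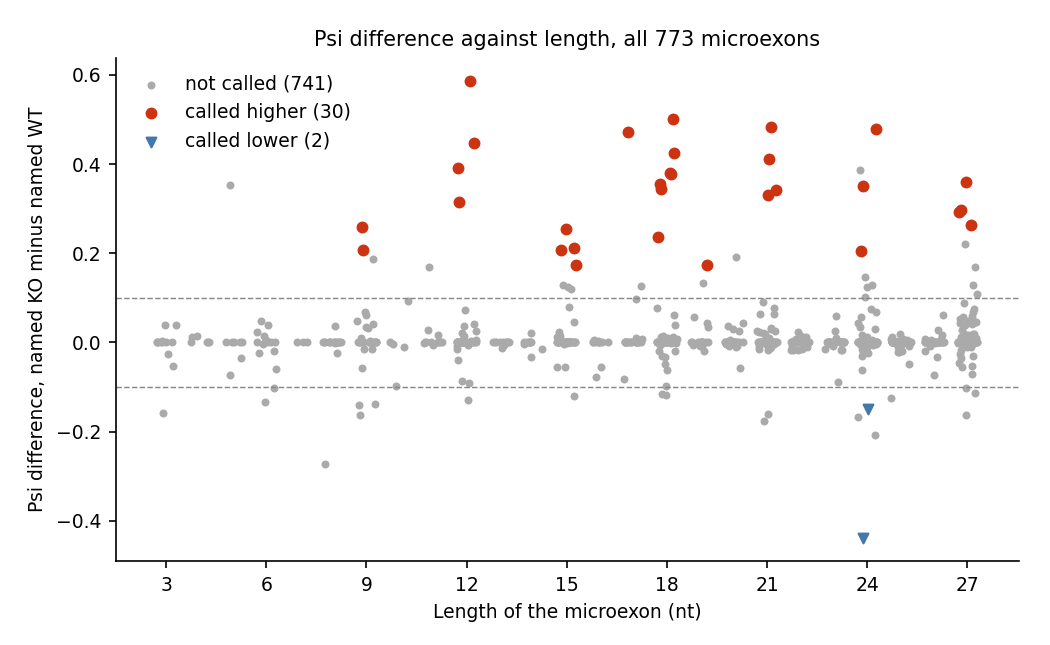
Psi difference between the libraries named KO and WT (y axis) against length in nt (x axis, with a small random shift) for all 773 microexons, with dashed lines at 0.1 and -0.1. The 30 called higher run from 9 to 27 nt and sit mostly at multiples of 3, while most other points lie at or near 0.

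The share of nodes called higher in the libraries named KO was lower in each longer length class. It was 3.88% at 3 to 27 nt, 0.667% at 28 to 50 nt, 0.214% at 51 to 100 nt, 0.125% above 100 and up to 200 nt, and 0.064% above 200 nt. Called lower were 0.259%, 0.435%, 0.21%, 0.103% and 0.0128% in the same order. Only nodes with an intermediate Psi could be called, and these made up 27.3%, 15%, 8.92%, 5.87% and 5.43% of the classes. Among them the shares called higher were 14.2%, 4.46%, 2.4%, 2.13% and 1.18%, so the order was the same.

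At the limit of 27 nt, of 202 nodes of 25 to 27 nt 4 were called higher and 0 lower, and of 210 nodes of 28 to 30 nt 2 were called higher and 2 lower. Within the microexons those of 16 to 21 nt (13 of 201 called higher) and of 10 to 15 nt (8 of 127) had the highest shares, at 6.47% and 6.3%, against 2.13% at 3 to 9 nt and 1.99% at 22 to 27 nt. Microexons with a length that is a multiple of 3 had 28 higher and 2 lower of 458, and the others 2 higher and 0 lower of 315, the 2 being those of Pdlim7 and Mrpl33. Only 34.3% and 17.1% of these had an intermediate Psi and could be called, and among them 17.8% and 3.7% were called higher. Nodes over 27 nt differed in the same direction, with 3.65% of the multiples of 3 in the fit called higher and 1.33% of the others. The median share of C or T in the microexon itself was 44.4% in the 30 called higher and 41.7% in the other 173 with a sequence and an intermediate Psi. The last base was G in 25 of those 30 (83.3%) and in 85.5% of the other 173. These are descriptions without a test.

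**Figure D3:**
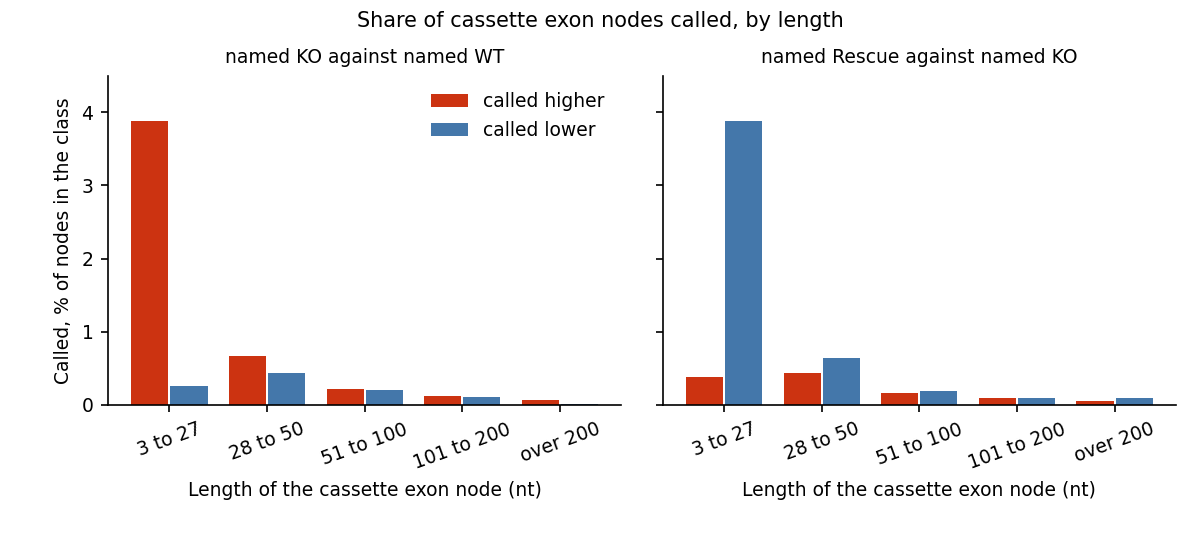
Share of cassette exon nodes called (y axis, % of all nodes in the class with 20 or more reads) in 5 length classes (x axis, nt), with red bars for nodes called higher and blue for lower. In the left panel microexons stand at 3.88% higher, and in the right panel, named Rescue against named KO, at 3.88% lower.

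In the libraries named Rescue, which by file name but not by label both carry human PTBP1, more microexons had lower than higher inclusion compared with those named KO. In the fit of nodes with intermediate Psi 30 microexons fell and 3 rose, where 2.51% of all nodes in that fit were called lower and 1.81% higher. As shares of all nodes with enough reads these were 3.88% of microexons against 0.186% called lower, and 0.388% against 0.134% called higher. In the fit of all 78852 nodes 0% were called (smallest adjusted p = 0.089), with 8895 nodes and 144 microexons at an unadjusted p under 0.05. Without a test, 53 of the 773 microexons were lower by at least 0.1 (399 of 78852 nodes, or 0.506%) and 19 higher (443 nodes, or 0.562%). With 1 library left out the count of 33 became 27 without either library named WT, 8 without KO, 9 without KO_TNF, 6 without Rescue and 10 without Rescue_TNF, and without weights or with the quasi-binomial model it became 0. This comparison shares the libraries named KO with the previous one, so its calls are no second test of that one.

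The falls ranged from 0.106 to 0.612, with a median of 0.266. Ctnnd1 fell by 0.449 (adjusted p = 8.87e-08) and Anxa6 fell by 0.365 (adjusted p = 2.73e-08). Mef2d fell by 0.445 (adjusted p = 0.00124) and Dnm1 fell by 0.353 (adjusted p = 0.00132). Picalm rose by 0.309 (adjusted p = 0.00124). Nav1 did not pass, with a difference of -0.366 (adjusted p = 0.0626). Some microexons were called here whose difference between the libraries named KO and WT was not called. Arhgef10l had 0.649, 0.628, 0.837, 0.681, 0.429 and 0.333 at 15 nt, so the libraries named Rescue were the lowest of the 6. Fip1l1, of the polyadenylation machinery, of 27 nt, fell by 0.126 (adjusted p = 0.0236), and that of the ribosomal protein Rps24, of 18 nt, fell by 0.106 (adjusted p = 0.000606) on 670 to 777 reads. Commd4, a COMM domain protein, was called higher at 9 nt by 0.178 (adjusted p = 0.0121), but on junction reads it was at 0.372 and 0.391 in the libraries named KO and 0.388 and 0.384 in those named Rescue, and was not called.

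The libraries named Rescue differed from those named WT in few microexons. In the fit of nodes with intermediate Psi 3 were higher and 1 was lower, where 0.274% of nodes in that fit were called higher and 0.154% lower. In the fit of all nodes 0% were called (smallest adjusted p = 0.135), with 9468 nodes and 107 microexons at an unadjusted p under 0.05. Macf1, a giant linker of actin and microtubules, had 0.407, 0.406, 0.537, 0.652, 0.783 and 0.918 at its 9 nt microexon. It was higher in both libraries named Rescue than in any other, with a difference of 0.444 from those named WT (adjusted p = 0.00355), while KO minus WT was 0.188 and not called (adjusted p = 0.119). Junction reads went against this, with 0.824, 0.864, 0.530, 0.652, 0.783 and 0.918 for Macf1. On them the libraries named WT and Rescue overlapped and those named KO were the lowest, so the call between Rescue and WT was lost and the sign of KO minus WT turned. Dnm1 was higher by 0.233 (adjusted p = 0.0316) and Axl by 0.107 (adjusted p = 0.0371), each between the pairs named WT and KO. On junction reads Dnm1 was no longer called in this comparison. Fip1l1 had 0.828, 0.691, 0.737, 0.642, 0.592 and 0.535, lower by 0.196 (adjusted p = 0.00247). As shares of all nodes with enough reads, called higher were 0.388% of microexons against 0.0203% of nodes, and called lower 0.129% against 0.0114%. A larger share among microexons was thus not particular to the comparisons with the libraries named KO. With 1 library left out the count of 4 became 0 or 1. Fip1l1 was called without the library named WT_TNF or that named Rescue_TNF, and the other 3 were called in no such fit. Without a test, 16 of the 773 microexons were higher by at least 0.1 (242 of 78852 nodes, or 0.307%) and 15 lower (237 nodes, or 0.301%).

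The libraries named with TNF, a cytokine that switches on inflammatory genes through NF-kB, differed from those named without it in few microexons. By label, the library named WT_TNF had no TNF and that named Rescue had TNF at 30 ng/mL. Over the 3 genotypes 0 microexons rose and 1 fell in the fit of nodes with intermediate Psi, where 0.0171% of nodes were called higher and 0.0513% lower. As shares of all nodes with enough reads, called higher were 0% of microexons against 0.00127% of nodes, and called lower 0.129% against 0.0038%. In the fit of all nodes 0% were called (smallest adjusted p = 0.278), with 10218 nodes and 118 microexons at an unadjusted p under 0.05. The microexon that fell was the 15 nt one of Abi1. Its Psi went from 0.151 to 0.0753 in the pair named WT, from 0.391 to 0.183 in that named KO and from 0.140 to 0.0558 in that named Rescue, a mean fall of 0.123 (adjusted p = 0.0268). The call was lost with any library left out.

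Other TNF differences were as large but did not pass. In Mark3 the Psi with TNF minus that without was -0.312 in the WT, -0.038 in the KO and -0.245 in the Rescue pair by file name (adjusted p = 0.170). On junction reads Mark3 went from 0.759 to 0.660, from 0.927 to 0.908 and from 0.667 to 0.629, smaller differences of the same sign. Picked after its values were seen, Ahi1, a gene of the ciliary transition zone, had 0.733, 0.956, 0.695, 0.882, 0.636 and 0.947 at 27 nt, the largest mean difference of all microexons at 0.240 (adjusted p = 0.300). Mrpl24 of the mitochondrial ribosome, picked in the same way, had 0.394, 0.549, 0.320, 0.477, 0.307 and 0.460 at 26 nt (adjusted p = 0.0972). In both, each library named with TNF was above its partner named without it. Junction reads gave the same values for Ahi1, but for Mrpl24 0.204, 0.358, 0.266, 0.308, 0.267 and 0.272, where the Rescue pair hardly differed. Without a test, 8 of the 773 microexons were higher by at least 0.1 over the 3 pairs (122 of 78852 nodes, or 0.155%) and 13 lower (167 nodes, or 0.212%). Of the 773, 19 were higher and 27 lower by that much in the WT pair alone, 21 and 16 in the KO pair, and 21 and 13 in the Rescue pair. Over all 78852 nodes these counts were 359 and 477, 401 and 407, and 354 and 434. The share was thus larger among microexons in each pair and in each direction.

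With the groups that the labels give, 0 microexons were called in each of the 4 comparisons, and 0% of the 5845 nodes were. This fit shared less information on spread between nodes, with limma's prior degrees of freedom at 4.31 against 13.36 with the file names' groups. The part of this in the number of calls was not tested. At an unadjusted p under 0.05 were 7 microexons for KO against WT, 6 for Rescue against KO, 5 for Rescue against WT and 8 for TNF, where 98 to 140 of the 5845 nodes were, depending on the comparison. Under the labels each genotype joins libraries whose file names give different genotypes. The values given for each library are the same under either reading, and only the contrasts differ.

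Microexons in genes known for them in neurons mostly stayed skipped. Of 46 such genes on a list taken from textbook knowledge, 29 held 53 of the 773 microexons. Of these, 33 had a mean Psi under 0.02 and 5 above 0.98. Only 15 had an intermediate Psi, and 4 of them rose in the libraries named KO (Mef2d, Dctn1, Ptk2 and Abi1) while 0 fell. Background for this count is the 14.2% of the 211 microexons in that fit that were called higher, and the 2.81% of all its nodes. 

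Genes known for microexons or for cytoskeletal and signalling roles were also listed in 5 groups by role. These lists do not hold Dnm1, Picalm, Sidt2, Fnbp1, Axl or Rapgef2, so their counts do not cover the calls described above. Among signalling and GTPase regulators 23 microexons were found, 9 of intermediate Psi, and 2 were called higher, those of Map4k4 and Ptk2. Cytoskeleton genes had 24, 6 of intermediate Psi, with 2 called higher, those of Abi1 and Dctn1. Transcription and chromatin genes had 11, 5 of intermediate Psi, with 1 called higher, that of Mef2d. The trafficking list had 5, 2 of intermediate Psi, and the RNA and translation list 5, with 0 of intermediate Psi, and neither had a call. No microexon of these 5 lists was called lower. Background is the 3.88% of all microexons and 0.208% of all nodes called higher. The median Psi difference was 0 in every list, as over all nodes.

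Several listed microexons were at 0 in every library. They include Itsn1, an endocytic scaffold (8 nt), the histone demethylase Kdm1a (12 nt), the adaptor subunit Ap1s2 (9 nt), agrin, Agrn (24 nt), and all 4 of the microtubule protein Clasp2 (17 to 27 nt). The neuronal microexon of Src, a tyrosine kinase (18 nt), was at 0.0124, 0.0171, 0.0753, 0.0762, 0.0105 and 0 on 96 to 178 reads. Both libraries named KO were above the other 4, but the difference was 0.061 and did not pass (adjusted p = 0.212). The receptor phosphatase Ptprs had 0.0589 and 0.0546 in the libraries named KO and at most 0.0205 in the others at 27 nt (adjusted p = 0.206), and Mef2a had 0.0997 and 0.0951 against at most 0.0495 at 24 nt (adjusted p = 0.401). In Ptprs a second microexon, of 12 nt, was included at 0.992 or more in all 6 libraries.

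Regulators of microexons gave the following levels. Of 36 listed splicing regulators 25 were tested with edgeR, and between the libraries named KO and WT 6 were higher and 3 lower at an adjusted p under 0.05, where 16.8% of all tested genes were higher and 16.3% lower. Ptbp2 rose by 2.43 ± 0.11 (SE) on the log2 scale (adjusted p = 0.00129), Mbnl1 by 0.84 ± 0.19 (adjusted p = 0.028), Rnps1 by 0.71 ± 0.07 (adjusted p = 0.00451), Celf1 by 0.62 ± 0.10 (adjusted p = 0.0136), U2af1 by 0.52 ± 0.08 (adjusted p = 0.0109) and Qk by 0.50 ± 0.07 (adjusted p = 0.0078). Celf4 fell by 0.69 and Celf5 fell by 0.59. Rbm20 fell by 2.75, from 1.48 and 0.70 TPM to 0.17 and 0.14. Srrm4, the activator of neuronal microexons, was at 0.09 TPM or less in every library, and its relative Srrm3 likewise. The neuronal factors Rbfox3 and Elavl4 were listed at 0 throughout, and Rbfox2 was at 99.95 to 131.91 TPM. Ptbp1 itself did not pass between the libraries named KO and WT (0.10 ± 0.09, adjusted p = 0.409). Between those named Rescue and KO 4 regulators were higher and 4 lower, where 9.79% of all genes were higher and 10.6% lower. Without either library named Rescue 0 regulators passed in this comparison and 4 rather than 9 between KO and WT, and with the labels' groups 0 passed in both. Among the lower ones Ptbp2 fell by 1.51 (adjusted p = 0.00505) and Ptbp1 fell by 1.17 (adjusted p = 0.00536). The part of any of these levels in the inclusion of microexons was not tested.

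Host genes of the called microexons moved in both directions. Of 31 such genes 30 were tested, of which 9 were higher and 4 lower in the libraries named KO, where 16.8% of all genes were higher and 16.3% lower, and 24 lay within 0.5 of 0 on the log2 scale, with a median of 0.10 against 0.00 over all genes. Together 13 passed, against 4 without the library named WT, 7 without WT_TNF, 2 without either named Rescue and 0 with the labels' groups. Pdlim7 rose by 1.55 ± 0.08 (adjusted p = 0.00147) and Incenp by 1.16 ± 0.11 (adjusted p = 0.00405), while Dnm1 fell by 0.83 ± 0.19 (adjusted p = 0.029) and Picalm fell by 0.60 ± 0.11 (adjusted p = 0.0184). The change of Pdlim7 in these counts is smaller than in TPM, which RSEM divides by the length of the transcripts it assigns reads to. Ctnnd1 (0.02 ± 0.08, adjusted p = 0.852) and Kif21a (0.01 ± 0.10, adjusted p = 0.970) did not pass. Whether the gene's level has a part in the Psi of Pdlim7, Incenp, Dnm1 or Picalm was not tested.

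**Figure D4:**
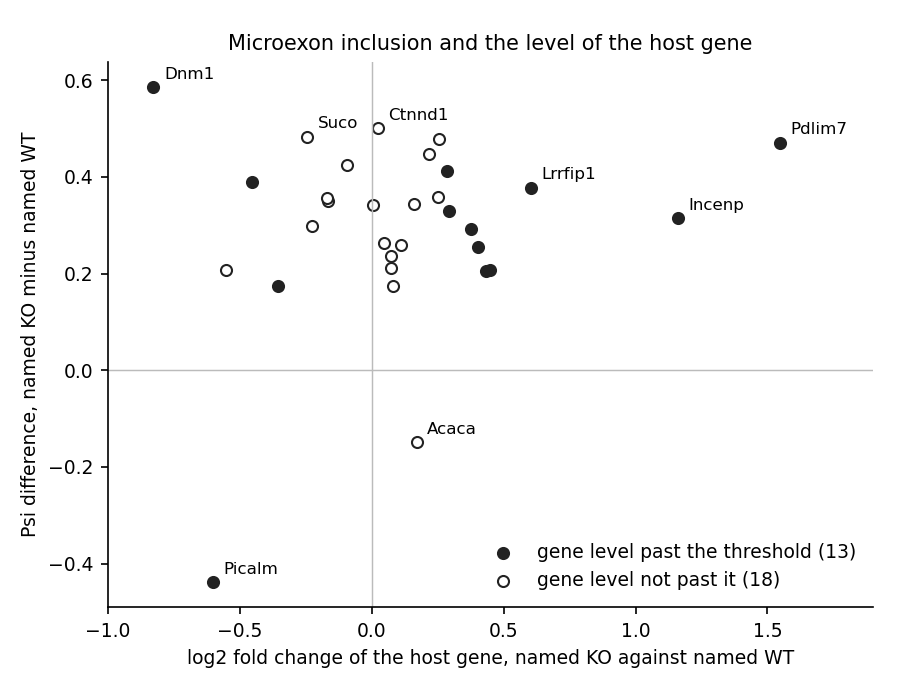
Psi difference of the called microexons (y axis) against the log2 fold change of their host gene (x axis), both between the libraries named KO and WT, with filled points where the gene passed edgeR's threshold (13 points) and open points where it did not (18). Higher inclusion occurs on both sides of 0, with Dnm1 at the left and Pdlim7 at the right.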

How the data were processed

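The 6 mouse libraries, 1 per group, came as a splicing table, a junction table and RSEM tables each. Per the file headers, Psi is a fraction from 0 to 1 per node and its total reads are an estimated count that the authors deposited with it. Junction reads were deposited as raw counts. Genes carry RSEM expected counts and TPM as deposited, made with RSEM per the submitters' processing notes. The tool and genome build behind Psi are not given in the sources used here. Node coordinates were matched to GENCODE vM21 (GRCm38), where 99.963% of cassette exon nodes shared an annotated exon edge.

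Inclusion reads were taken as Psi times total reads. limma 3.58.1 (R 4.3.3) fitted log2 of inclusion over exclusion, each with 0.5 reads added, weighted by counting variance, on genotype plus TNF over 6 libraries, with Benjamini-Hochberg adjustment over all nodes fitted. The same model was fitted to nodes of mean Psi 0.02 to 0.98, and this fit was taken for calls after the fit of all nodes gave 0. limma's prior degrees of freedom were 1.19 over all nodes and 13.36 over these with the file names' groups, and 1.41 and 4.31 with the labels' groups. On simulated data, with an assumed spread between libraries and no TNF effect, the fit of all nodes recovered almost no changes. Gene levels were tested with edgeR 4.0.16 (quasi-likelihood, rounded expected counts), and DESeq2 1.42.0 was an alternative. The rule named the 25 called microexons with the largest Psi difference and those of the listed neuronal genes, and it was applied to the calls among nodes of intermediate Psi. Members and lists were chosen with earlier results of these data known. Scripts were tested on simulated data. Reads without molecular identifiers are not independent molecules, and weights cover counting error only. The median width of the deposited Psi interval was 0.092 to 0.106 per library for microexons of intermediate Psi.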

Additional observations from a re-analysis of the deposited data

Results flagged for a closer look

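The 27 nt microexon of Ssc5d had deposited Psi changes of opposite sign with TNF in 2 genotypes, both read from file names. In the pair named WT its Psi changed by -0.122 and in the pair named KO by 0.126, and the difference between these changes was not tested. The WT pair went from 0.639 to 0.517 and the KO pair from 0.874 to 1.00, on 33 to 100 reads per library. On junction reads alone its Psi went from 0.811 to 0.821 in the WT pair and from 0.924 to 0.930 in the KO pair, so the opposite signs were not seen there.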

How the results depend on the processing

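The fit of all cassette exon nodes gave 0 calls among microexons under each setting tried except the restriction to nodes of mean Psi 0.02 to 0.98, which gave 32 calls for KO against WT, 33 for Rescue against KO, 4 for Rescue against WT and 1 for TNF. On those nodes, fits without weights or with a quasi-binomial model per node gave 0 calls in each comparison. These settings, like the others on those nodes, were chosen after seeing the data. Rescue against WT gave 2 calls with 50 or more reads, 2 with junction reads and 2 at a Psi difference of 0.2, and TNF gave 0 with 50 or more reads and 0 at a difference of 0.2. With each library left out in turn the count was 10 to 25 for KO against WT, 6 to 27 for Rescue against KO, 0 to 1 for Rescue against WT and 0 to 0 for TNF, and a group left with 1 library was assumed to vary like the others. With the labels' groups 0 regulators and 0 host genes passed for KO against WT or Rescue against KO. Leaving out a library, regulators past the threshold numbered 4 to 10 for KO against WT and 0 to 8 for Rescue against KO, and host genes 2 to 12 and 0 to 13. Of the 70 called Psi differences, 66 stayed past the threshold with a pseudocount of 2 reads and 60 of 68 with junction reads. Junction reads come from the same libraries and often gave nearly the deposited Psi, so they are no independent support. With all nodes in the fit, without weights or with the quasi-binomial model, 0 of the 70 did. None changed sign with junction reads or with a library left out. The other settings leave the Psi difference itself as it is, so its sign could not change there. The cause of these changes was not tested. TNF was compared within genotypes by the genotype term of the fit itself, which pairs the libraries with and without TNF. No further pairing was possible, because each group had 1 library and replicate numbers pair none of them. Intron motifs were not analysed here.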

Other observations

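Collagen genes held 28 microexons in 10 genes, 17 of them of 27 nt, a length that codes for whole repeats of the collagen triplet. Of the 28, 25 had a mean Psi above 0.98. Col18a1 and Col6a1 were among the 4 genes with the most microexons, 5 each, beside Macf1 and Pdlim5. In Pdlim5 and Macf1, by contrast, part of the microexons was skipped in every library.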
